A study of Mus musculus with 4 samples.

Results

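The Fat and Dachsous giant cadherin system was followed in Py2T cells through 7 genes, the cadherins Fat1, Fat2, Fat3, Fat4 and Dchs1, the kinase gene Fjx1 and the FERM domain gene Frmd6. They were chosen by name, with earlier results of these data known. For each the brightest probe set that the array's gene table assigns to that symbol alone was used. All 7 had such a probe set, out of 19938 genes measured in this way. Py2T is a single mouse breast cancer cell line, grown from a mammary tumour of an MMTV-PyMT transgenic mouse, that passes through an epithelial to mesenchymal transition under TGFβ. Both groups were the same line in DMEM with glutamine, antibiotics and 10% FCS. The 2 control arrays came from untreated cells and the other 2 from cells given TGFβ at 2 ng/ml for 5 days. RNA of whole cultures was read on Affymetrix arrays, and values are RMA values on the log2 scale, so that a difference of 1 is a 2-fold difference.

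Fat and Dachsous proteins are very large cadherins that bind each other across cell contacts, with Fat4 and Dchs1 as the best known vertebrate pair. In flies the Golgi kinase made by the fj gene, the relative of Fjx1, phosphorylates their cadherin repeats and so tunes the binding, and the system orients cells in the plane of a tissue and restrains growth through the Hippo kinases. Fat1 is nearer to the fly Fat-like protein, is abundant in many epithelia and acts on actin at cell contacts and edges. Frmd6, also called willin, is a relative of fly Expanded and has been placed upstream of the Hippo kinases.

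The array medians lay between 6.74 and 6.76, replicate arrays correlated across genes at 0.997 in each group, and single values ran from 3.33 to 14.3. Fits were made with limma, and a gene was called at a Benjamini-Hochberg adjusted p under 0.05 over all genes. Of the 7 markers of epithelial cells 5 were called lower after TGFβ, and the keratins Krt8 and Krt18 were not called. Of these 5 calls that of Cdh1 was lost in 1 leave-out fit (adjusted p = 0.0567 without untreated replicate 1). Of the 7 fibroblast markers 2 were called higher, Pdgfrb by 1.01 and Col1a1 by 0.46 on the log2 scale. The Col1a1 adjusted p ran from 0.0358 to 0.128 with each array left out in turn, and was under 0.05 only without untreated replicate 2. Pdgfra, not called with all arrays at 0.49, was called without TGFβ replicate 1 (0.71, adjusted p = 0.0149). Thy1, Dcn and Lum, also fibroblast markers, had both group means under 7. The mean value of the fibroblast markers was 6.62 and 6.63 on the untreated arrays and 6.80 and 6.98 on the TGFβ arrays, and that of the epithelial markers 11.66 and 11.53 against 10.12 and 10.48. With all 4 arrays none of the 5 leukocyte or 5 endothelial markers measured was called, the largest difference being -1.29 for Cd68 (adjusted p = 0.0518), and 3 and 5 of them had both group means under 7. Cd68 was called lower without untreated replicate 2 (-1.67, adjusted p = 0.0245), as it was when TGFβ replicate 2 was left out (-1.65, adjusted p = 0.0306). Csf1r, at -0.45 with all arrays, was called lower without untreated replicate 2 (-0.72, adjusted p = 0.0267). The part of the cells' marker changes in the results below was not tested, and in RNA of whole cultures fewer cells with a transcript and less of it per cell cannot be told apart.

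The comparison asked which genes of the system differ between TGFβ and control arrays. Fat4 rose and Fat1 fell, while Fat2, Fat3, Dchs1, Fjx1 and Frmd6 did not pass. Of the 7 genes 1 was called higher and 1 lower, where 6.49% of all genes were called higher, 7.15% lower and 13.6% in either direction. The median log2 difference over the 7 genes was 0.05 and over all genes 0.01. The untreated and TGFβ values did not overlap in 4 of the 7 genes, against 52.6% of all genes, so that share is near the background.

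**Figure D1:**
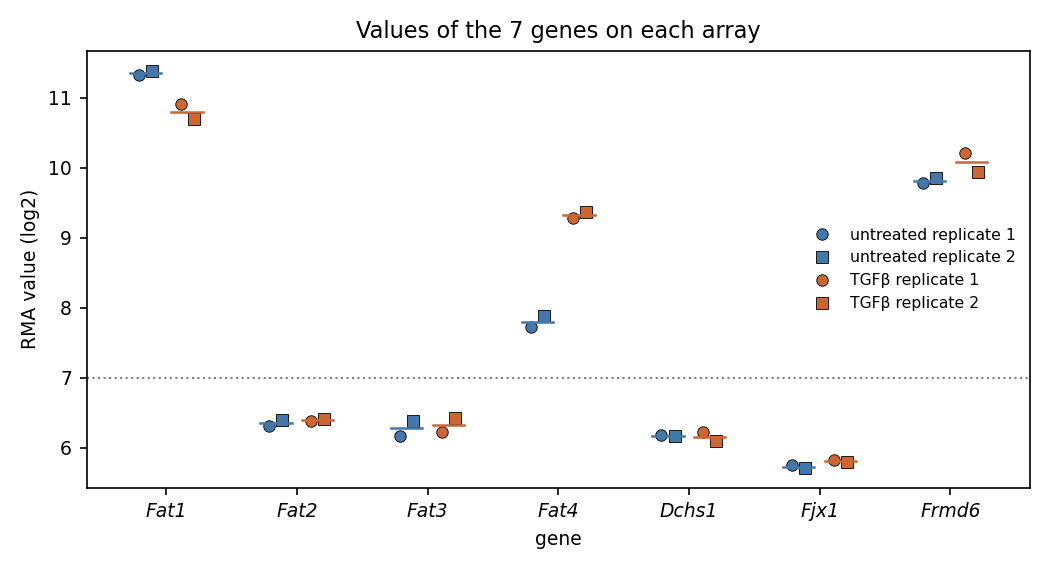
RMA values (log2) of the 7 genes on each of the 4 arrays; circles are replicate 1, squares replicate 2, short lines the group means, and the dotted line a value of 7. Fat4 stands at 7.72 and 7.88 untreated against 9.28 and 9.37 after TGFβ, Fat1 is lower on both TGFβ arrays, and Fat2, Fat3, Dchs1 and Fjx1 lie below 7 on every array.

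Fat4, the large cadherin that binds Dchs1, read 7.72 and 7.88 on the untreated arrays and 9.28 and 9.37 on the TGFβ arrays. Both TGFβ arrays were well above both untreated arrays, and the 4 pairwise differences between arrays of the 2 groups ran from 1.39 to 1.65 on the log2 scale. The group means were 7.80 ± 0.11 and 9.32 ± 0.07 (log2, SD, n = 2). The fitted difference was 1.52 ± 0.09 (log2, SE; 95% interval 1.30 to 1.74), or 2.87-fold (2.46 to 3.35), with an adjusted p of 0.000651 in limma. It was the 151st largest rise among the genes measured. With each array left out in turn the difference stayed between 1.44 and 1.60 and the adjusted p between 0.00165 and 0.00237.

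Fat1, the Fat-like cadherin of epithelial contacts, read 11.33 and 11.39 on the untreated arrays and 10.91 and 10.70 on the TGFβ arrays. Both TGFβ arrays lay below both untreated arrays, by 0.42 to 0.69 on the log2 scale in the 4 pairwise comparisons. The means were 11.36 ± 0.05 and 10.80 ± 0.15 (log2, SD, n = 2), and the fitted difference was -0.56 ± 0.10 (log2, SE; 95% interval -0.79 to -0.32). Fat1 was thus 1.47-fold lower after TGFβ, at an adjusted p of 0.0172 in limma. Its direction was the same with any array left out, but its call was not: the difference was -0.59 (adjusted p = 0.0588) without untreated replicate 1 and -0.52 (adjusted p = 0.0748) without untreated replicate 2. Without TGFβ replicate 1 or 2 it was -0.66 and -0.45 and stayed called. When every probe set of the array was tested, unnamed ones included, the adjusted p was 0.0630, and the same difference did not pass limma's treat test against a log2 difference of 0.5.

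**Figure D2:**
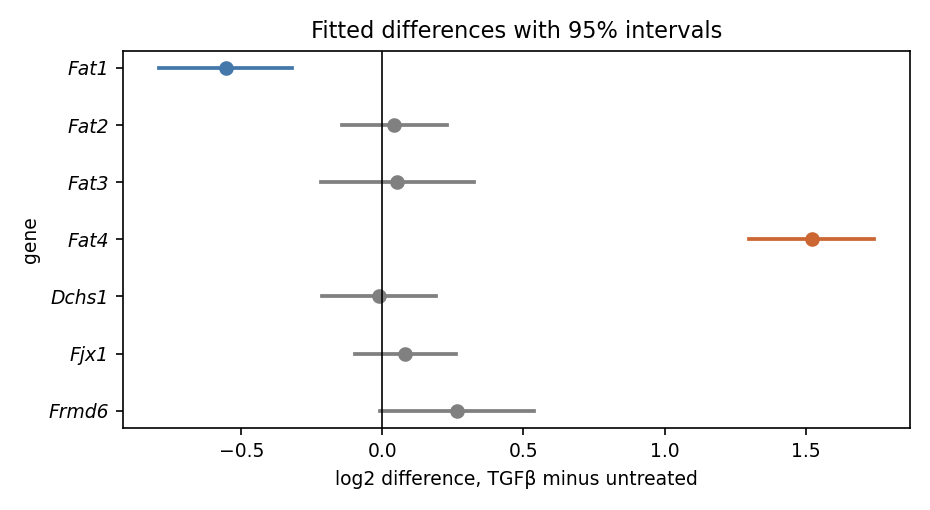
Fitted log2 differences (TGFβ minus untreated) of the 7 genes, with 95% intervals from limma as bars; orange is called higher, blue called lower and grey not called. Fat4 (1.52) and Fat1 (-0.56) have intervals away from 0, and the other intervals include 0.

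**Figure D3:**
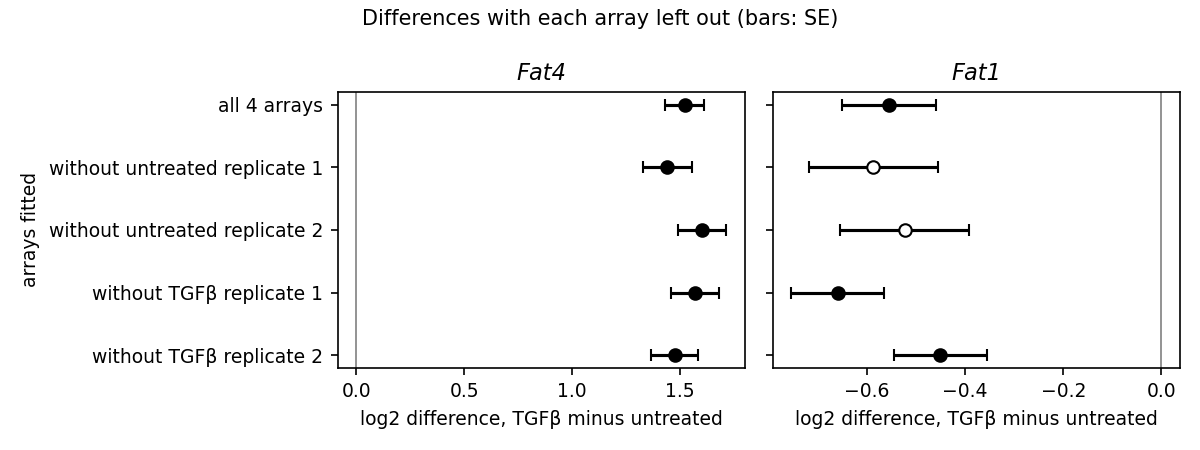
Log2 differences of Fat4 and Fat1 (x axis, with separate scales) fitted with all 4 arrays and with each array left out; bars are standard errors and open circles mark fits with an adjusted p of 0.05 or more. Fat4 stays between 1.44 and 1.60 in the leave-out fits, and the Fat1 call is lost without either untreated array.

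The RefSeq windows at a listed start of these 2 called genes are shown for comparison, since both moved and they moved in opposite directions. Each is the 300-base RefSeq window of mouse build GRCm38.p6 around a listed start, 250 bases before it and 50 after, at chr3:38886690-38886989 for Fat4 and chr8:44949958-44950257 for Fat1, both on the plus strand. The listed starts lie 2273 bases (Fat4) and 17108 bases (Fat1) inside the RefSeq gene records, which begin that far upstream. These windows may therefore not be the promoters used in Py2T cells, and the motif matches describe the windows alone. Shortly before each listed start the letters run as at the end of an intron, a stretch rich in c and t that ends in ag. The CAGGTG marked in the Fat1 window holds that ag. Whether the listed starts are starts of coding exons and not of transcripts was not tested. Capitals mark matches, on either strand, to GGAATG (the core of the Tead site), CAGGTG (the E-box bound by Zeb and Snail factors) or GTCTAGAC (a Smad site).
Fat4: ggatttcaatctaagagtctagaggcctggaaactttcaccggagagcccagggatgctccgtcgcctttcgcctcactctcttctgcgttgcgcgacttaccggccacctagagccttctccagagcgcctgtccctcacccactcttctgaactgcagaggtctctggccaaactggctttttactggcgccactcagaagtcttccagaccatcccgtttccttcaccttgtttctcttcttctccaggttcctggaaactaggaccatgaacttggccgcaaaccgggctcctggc
Fat1: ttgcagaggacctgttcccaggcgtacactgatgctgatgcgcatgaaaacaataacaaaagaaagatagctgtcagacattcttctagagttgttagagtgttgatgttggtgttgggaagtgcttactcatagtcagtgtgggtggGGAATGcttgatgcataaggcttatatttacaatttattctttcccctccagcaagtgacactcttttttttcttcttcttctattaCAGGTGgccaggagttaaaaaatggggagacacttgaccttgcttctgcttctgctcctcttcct
The Fat4 window holds none of these motifs. The Fat1 window holds 1 GGAATG, starting 102 bases before the listed start, and 1 CAGGTG, starting 15 bases before it, and the matches do not overlap. Of all 32851 windows of this length 14.7% hold GGAATG, 20.2% CAGGTG and 0.213% GTCTAGAC. RefSeq windows were found for 5 of the 7 genes. That of Fat2, whose listed start lies 25248 bases inside its gene record, holds 1 GGAATG, starting 185 bases before that start, and those of Fat3 and Frmd6 hold none of the 3 motifs. GC made up 55.7% of the Fat4 window, 42.7% of the Fat1 window and 43.7% of the Fat2 window. It made up 71.3% of the Fat3 window and 74.3% of the Frmd6 window, whose listed starts lie only 627 and 58 bases inside their gene records. These matches are a description of letters in a window and were not tested against expression.

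Dchs1, the ligand and receptor that pairs with Fat4, read 6.18 and 6.16 on the untreated arrays and 6.23 and 6.09 on the TGFβ arrays. The groups overlapped, with the TGFβ arrays on both sides of the untreated ones. The difference was -0.01 ± 0.08 (log2, SE; 95% interval -0.21 to 0.19). With the Dchs1 standard error, a difference of 0.34 on the log2 scale would have been needed for a call. Both means were under 7, and no detection calls come with the values. As a rough guide to background, 1015 olfactory receptor genes had a median of 4.67 and a 95th percentile of 6.06. The Dchs1 means of 6.17 and 6.16 lay slightly above that percentile, which does not settle whether Dchs1 was detected. Of all genes 46.7% had an untreated mean under 7.

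Fat2, a giant cadherin known from epidermal and cerebellar cells, read 6.31 and 6.39 on the untreated arrays and 6.37 and 6.41 after TGFβ. The groups overlapped, and the difference was 0.04 ± 0.08 (log2, SE; 95% interval -0.14 to 0.23). Its fold interval was 0.91 to 1.17, so a 2-fold change in the array value lies outside it. As with Dchs1, both means (6.35 and 6.39) were under 7 and above the olfactory 95th percentile of 6.06.

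Fat3, a giant cadherin known for its part in shaping neurons of the retina, was the only one of the 7 genes with several probe sets. Its brightest probe set read 6.17 and 6.38 on the untreated arrays and 6.23 and 6.43 on the TGFβ arrays. The group means of this probe set, 6.27 and 6.33, lay above the olfactory 95th percentile of 6.06, but it was picked as the brightest of 15. Replicate 2 read higher than replicate 1 in both groups, by more than the groups differed, and the difference was 0.05 ± 0.11 (log2, SE; 95% interval -0.22 to 0.33). The 15 Fat3 probe sets, all of 1 gene and so not replicates of it, had means over the 4 arrays from 4.41 to 6.30. Their differences ran from -0.11 to 0.10 with a median of -0.03, 7 above 0 and 8 below. In 5 of the 15 the groups did not overlap, where 52.6% of all genes did not. None of the 15 was called among all probe sets and 0 had an unadjusted p under 0.05 in limma. The mean of all 15 gave a difference of -0.01 on the log2 scale, so the sign for Fat3 depends on the probe sets used.

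**Figure D4:**
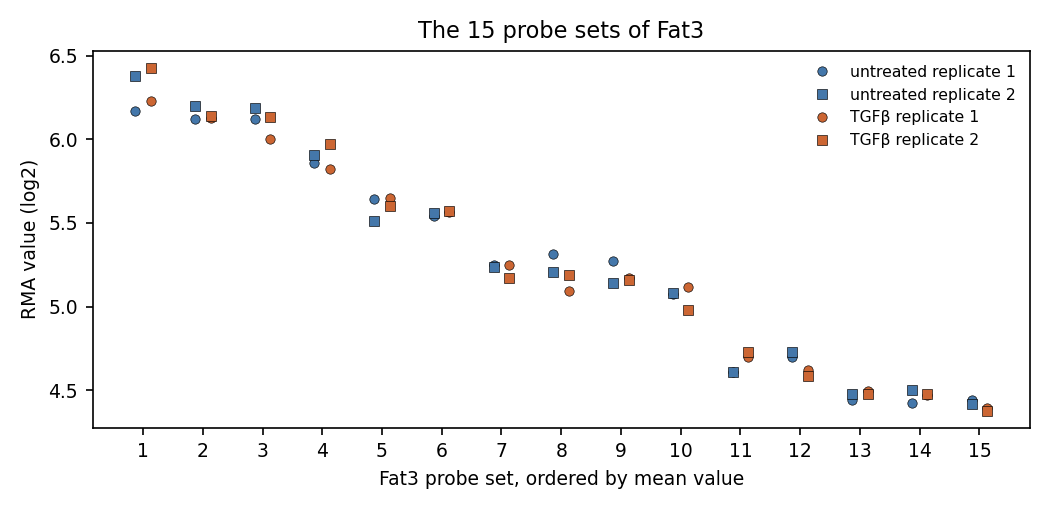
RMA values (log2) of the 15 Fat3 probe sets on each array, ordered by mean; blue is untreated, orange TGFβ, circles replicate 1 and squares replicate 2. Every probe set lies below 7, and the differences between groups run from -0.11 to 0.10.

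Fjx1, the Golgi kinase gene of the system, read 5.75 and 5.71 on the untreated arrays and 5.82 and 5.80 on the TGFβ arrays. The TGFβ arrays were higher, with a gap of 0.05 between the groups. The difference of 0.08 ± 0.07 (log2, SE; 95% interval -0.10 to 0.26) did not pass (adjusted p = 0.602 in limma). With the Fjx1 standard error a difference of 0.30 would have been needed for a call. Both means (5.73 and 5.81) were under 7 and also under the olfactory 95th percentile of 6.06.

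Frmd6, the relative of Expanded, was well above 7 in both groups. It read 9.78 and 9.85 on the untreated arrays and 10.22 and 9.94 on the TGFβ arrays. Both TGFβ arrays lay above both untreated arrays, by 0.09 to 0.44 on the log2 scale, and most of the distance came from TGFβ replicate 1. The means were 9.82 ± 0.05 and 10.08 ± 0.20 (log2, SD, n = 2), and the difference was 0.26 ± 0.11 (log2, SE; 95% interval -0.01 to 0.54; adjusted p = 0.208 in limma). It was 0.12 without TGFβ replicate 1 and 0.40 without TGFβ replicate 2 (adjusted p = 0.561 and 0.0609). A difference of 0.45 would have been needed for a call.

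The genes whose pattern over the 4 arrays was most like that of Fat4 were Fyn, a Src family kinase, Fcrlb, an Fc receptor-like gene, and Jcad, a protein of cell junctions. Likeness was the root mean square difference of the array values after each gene's own mean was subtracted, over 10437 genes with a brighter group mean of at least 7. It was 0.063 for Fyn, 0.076 for Fcrlb and 0.085 for Jcad on the log2 scale. Nearest to Fat1 were Btbd19 (0.014), a BTB domain gene, N4bp3 (0.014) and Pkp1 (0.016), the desmosomal plakophilin. These rank patterns over 4 arrays of 2 groups only.

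Proteins that bind Fat or Dachsous or are counterparts of their fly partners were measured as 23 genes, of which 5 rose, 3 fell and 15 did not pass, or 34.8% called against 13.6% of all genes. Their median log2 difference was 0.14. Of the 23 genes 4 had an untreated mean under 7, against 46.7% of all genes. Lix1l, a relative of the fly gene lowfat, read 9.36 and 9.13 untreated and 10.56 and 10.39 after TGFβ, a rise of 1.23 ± 0.11 (log2, SE). Wtip, an Ajuba family LIM protein, rose by 0.77 ± 0.07, and its relative Ajuba fell by 0.41. The atrophin relative Rere fell by 0.47 and the palmitoyltransferase gene Zdhhc9 fell by 0.45. Of the 8 called partners 2, Wtip and Lix1l, kept the call with each array left out in turn. The adjusted p over these 4 fits ran from 0.0375 to 0.170 for Ajuba and from 0.0107 to 0.117 for Zyx, a LIM protein that rose by 0.76 with all arrays. It ran from 0.0352 to 0.109 for Rere and from 0.0469 to 0.151 for Zdhhc9. Zyx lost its call without untreated replicate 1 or TGFβ replicate 1, Ajuba was called only without TGFβ replicate 1, and Rere and Zdhhc9 only without untreated replicate 2. Dchs2, the other Dachsous cadherin, was looked for but had no probe set assigned to its symbol alone, so it was not measured.

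The Hippo kinases and the scaffolds upstream of them, through which fly Fat restrains growth, had 21 measured genes. Of these 2 rose, 4 fell and 15 did not pass (28.6% called, against 13.6% of all genes). Their median difference was 0.07. The core kinase genes Lats1, Lats2 and Stk4 differed by -0.0044, -0.23 and 0.03 on the log2 scale without passing. Stk3, another core kinase gene, had no probe set assigned to its symbol alone and was not measured. Amotl2, an angiomotin that binds Yap, rose by 0.71 ± 0.10 and was the only one of the 6 called genes that stayed called with each array left out. Nf2, the FERM domain protein merlin that acts beside Expanded in flies, fell by 0.39. Its adjusted p was 0.0647 to 0.150 with each array left out in turn, and none of those fits called it. Rassf1, a scaffold that binds the kinases, rose by 0.72 (adjusted p 0.00698 to 0.104, lost without either untreated array). The phosphatase Ptpn14, a Yap inhibitor, fell by 0.41 and Strn, a striatin, fell by 0.46. Both were called only without TGFβ replicate 1 among those fits (adjusted p 0.0462 to 0.102 and 0.0233 to 0.118). Of these 21 genes and of the 8 Yap, Taz and Tead genes 0 had an untreated mean under 7, against 46.7% of all genes. The fit without the dimmer 50% of genes, with its own variances and adjustment, gave 2454 calls among the brighter 50%, against 2720 among all genes. Bright genes were thus called more often, and 13.6% is a low yardstick for these lists. The same holds for the partners above and the FERM domain relatives below. The Yap, Taz and Tead genes at the end of the pathway were 8, of which 1 rose (Tead2, by 1.64 ± 0.13), 2 fell and 5 did not pass (37.5% called, against 13.6% of all genes). Those that fell were Tead3 (by 0.41) and Tead4 (by 0.39), with an adjusted p of 0.0396 to 0.115 and 0.0693 to 0.157 when each array was left out; Tead3 stayed called only without TGFβ replicate 1 and Tead4 in none of those fits.

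The core planar polarity genes, which form another system that orients cells beside Fat and Dachsous, had 20 measured genes. Of these 1 rose, 3 fell and 16 did not pass (20% called, against 13.6% of all genes). Their median difference was -0.10. Celsr1, a large cadherin with a receptor-like membrane part, read 9.79 and 9.89 untreated and 9.21 and 9.28 after TGFβ, a fall of 0.59 ± 0.08 (log2, SE) that stayed called with each array left out. The 2 Vangl genes went opposite ways, as Fat4 and Fat1 did: Vangl2 differed by 0.74 and Vangl1 by -0.50 on the log2 scale, both called. Their adjusted p ran from 0.0114 to 0.108 and from 0.0248 to 0.0729 with each array left out. Vangl2 lost its call without untreated replicate 2 or TGFβ replicate 1, and Vangl1 without either untreated array. Dvl1, a Dishevelled adaptor, fell by 0.35, and was called in no fit that left out an array (adjusted p 0.0832 to 0.208). Of 8 planar polarity genes with both means under 7, such as Celsr2 and Celsr3, 0 were called. The share called among all genes as dim as these was not computed, so this count is not a result about these 8.

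Among relatives of Frmd6 by the FERM domain, 1 rose, 4 fell and 10 did not pass of 15 measured (33.3% called, against 13.6% of all genes). Their median difference was -0.15, and 4 of the 15 had an untreated mean under 7, against 46.7% of all genes. Epb41l5, which links to the Crumbs polarity complex, read 8.72 and 8.90 untreated and 7.64 and 7.95 after TGFβ, a fall of 1.01 ± 0.13 (log2, SE). Ezr, the microvillus protein ezrin, fell by 0.72 ± 0.08, while its relatives Msn and Rdx differed by 0.24 and 0.09 without passing. Epb41l5, Ezr and the dim Epb41l3 stayed called with each array left out, which Nf2 and Epb41l1 did not. Epb41l1 rose by 0.48 and was called only without untreated replicate 1 among those fits (adjusted p 0.0380 to 0.0906).

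**Figure D5:**
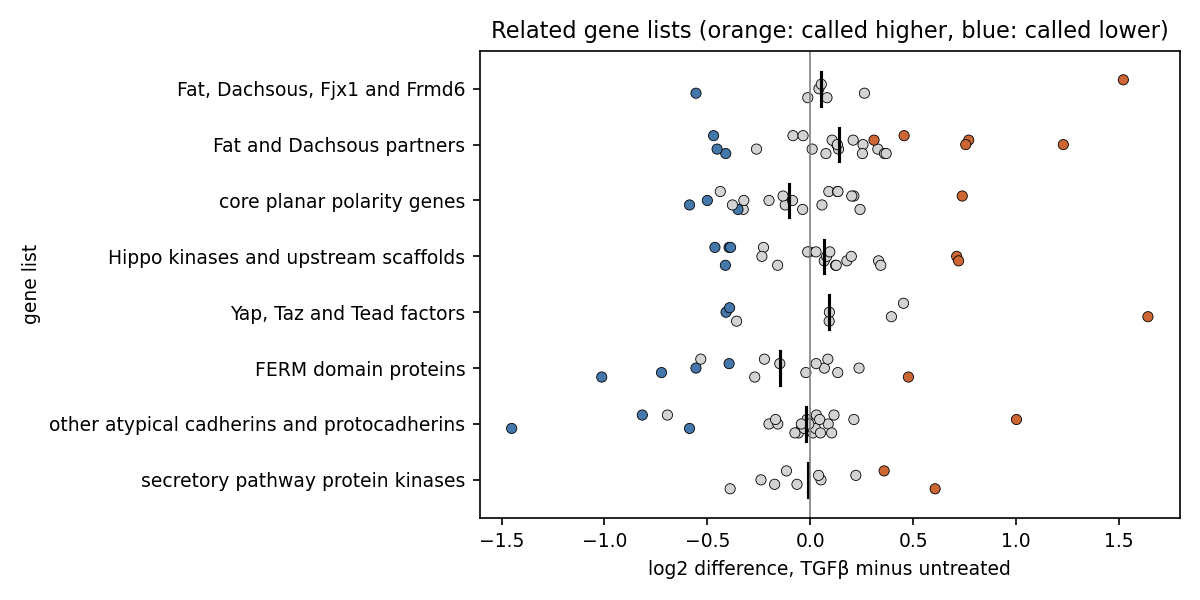
Log2 differences (TGFβ minus untreated) of the 7 genes and of 7 related lists; each point is a gene, orange called higher, blue called lower and grey not called, and the black bars are list medians. The medians lie between -0.15 and 0.14, and Fat4 and Tead2 are the points farthest to the right.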

How the data were processed

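The deposited log2 values were produced by the authors with RMA in the package oligo, per the submitters' processing notes. RMA corrects background, equalizes the arrays' distributions and summarises probes into probe sets, and no version, summary level or build was found in the labels. The 4 arrays hold 35556 probe sets each, 21789 with 1 symbol; the brightest, by its mean over all arrays, stood for each of 19938 genes. RefSeq held 19856 of 19939 Entrez identifiers, with 0 changed symbols.

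The arrays were fitted in limma 3.58.1 (R 4.3.3) by 1 linear model per gene, with empirical Bayes variances (2 residual and 3.77 prior degrees of freedom), two-sided tests and Benjamini-Hochberg adjustment over all genes. No values were filtered or rescaled. With 2 arrays a group, an exact permutation p cannot go below 0.333, so none was used. The labels call the replicates biological and say no more, so p-values speak only of the spread between these arrays, whose number limits the precision. The procedure was tested on simulated data, with a pass mark only for log2 differences of 2. Recovery of smaller differences, such as that of Fat1, is not given here.

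The 7 genes and the 7 related lists were chosen with earlier results of these data known. Named genes are the 7 genes, up to 3 rises and 3 falls with the largest difference among the called genes of each list, and, for each called gene of the 7, the 3 nearest in pattern, without predicted, olfactory or small RNA genes. Uncalled genes named as examples were picked after their values were seen. Alternatives were 3 scalings, 2 filters on dim genes, averaged probe sets, all probe sets, trended and robust variances, a replicate block, 2 stricter thresholds and each array left out.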

Additional observations from a re-analysis of the deposited data

How the results depend on the processing

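The Fat4 rise kept its direction and its call under every alternative run. The 5 uncalled genes of the 7 stayed uncalled wherever they were fitted; Fat2, Fat3, Dchs1 and Fjx1 were not in the fit without the dimmer 50% of genes. Fat1 kept its direction throughout, and its call was lost at the unmoved difference of -0.56 with every probe set tested, with the replicate block, with treat and with the 2-fold threshold, leaving 1 of the 7 genes called and 0 lower. For the first 2 of these the cause was not tested.

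With every probe set tested, 1536 probe sets were called, 722 higher and 814 lower, with 11 calls among the related genes in place of 30. With treat against 0.5 there were 543 calls (266 higher, 277 lower; 3 related), and with at least a 2-fold difference 677 (323 and 354; 5 related), both stricter by construction. With the replicate block there were 1624 calls (785 higher, 839 lower) and 14 related, and Fat1 had an adjusted p of 0.0543 in limma. The main fit took no pairs, since the labels name no pairing. Deviations of same-numbered arrays correlated at -0.21 across genes, which with 2 arrays a group cannot settle whether the numbers mark pairs. The crossed pairing, chosen after seeing the data, gave 3640 calls.

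Leaving out each array gave 1535 to 2260 calls (740 to 1167 higher, 751 to 1093 lower), 1 to 2 of the 7 genes (1 higher in each fit, 0 to 1 lower), 14 to 23 related calls and a Fat1 difference of -0.66 to -0.45. Of the 2720 calls 1182 (43.5%), and of the 30 related calls 11, stayed in all 4 of these fits, in which the lone array is assumed to vary like the other group. Values under 7 limit what can be seen in Fat2, Fat3, Dchs1 and Fjx1.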

Other observations

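Among 24 measured atypical cadherins and protocadherins outside the Fat and Dachsous genes, 1 rose, 3 fell and 20 did not pass (16.7% called against 13.6% of all genes; median -0.02). Pcdh7, a protocadherin, read 10.05 and 10.04 on the untreated arrays and 8.50 and 8.69 on the TGFβ arrays, a fall of 1.45 ± 0.09 (log2, SE; adjusted p = 0.000751 in limma). Clstn1, a calsyntenin of vesicle transport, fell by 0.82 ± 0.08, and Pcdh18 rose by 1.00 ± 0.13, from 8.10 and 7.86 to 9.12 and 8.84. All 4 calls, Celsr1 included, stayed with each array left out in turn. Of the 24 genes 16 had both means under 7.

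Of 10 measured secretory pathway kinases, the wider group to which Fjx1 belongs, 2 rose, 0 fell and 8 did not pass (20% called, against 13.6% of all genes). Both group means were under 7 in 5 of the 10. Dipk1a rose by 0.61 and Pomk, a kinase that acts on dystroglycan sugars, rose by 0.36. Neither stayed called with each array left out, with adjusted p of 0.0170 to 0.0798 for Dipk1a and 0.0613 to 0.171 for Pomk in limma. Dipk1a lost its call without untreated replicate 2 or TGFβ replicate 1, and Pomk was called in none of the 4 fits.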
